A study of Mus musculus with 12 samples.

Results

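Mast cell products were followed through 10 genes in colorectal polyps and normal colorectal tissue of mice. The genes were chosen by name, with earlier results of these data known. They were the chymases Mcpt1, Mcpt2, Mcpt4, Cma1 and Cma2, the tryptase Tpsb2 and the carboxypeptidase Cpa3. With them came the IgE receptor chains Fcer1a and Ms4a2, and the histamine-forming enzyme Hdc. These 10 are among the 30139 genes or transcripts on the array. They were read by 11 probes, each matched to its gene by the accession listed for the probe. A gene was tested only where the scanner software marked its probe well above background throughout 1 or more groups of 4 arrays. This left 20084 genes, 9 of the 10 among them, and Ms4a2 was too dim.

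Total RNA was measured on 12 single-colour arrays, 4 for each of 3 groups: polyps of mice heterozygous for the truncating allele ApcΔ716, normal colorectal tissue of such mice, and normal colorectal tissue of wild-type mice. The mice were C57BL/6N females aged 14 weeks in every group, kept on the same chow, and the labels give no treatment or further allele for any group. Titles number the polyp and Apc normal samples 103, 106, 107 and 110, so that each polyp has a normal sample of the same number, and the wild-type samples 102, 104, 105 and 108. The Apc allele is carried in the germline and so by all cells of the mutant mice, mast cells included. Whether a polyp sample was 1 polyp or several, and how deep the normal tissue was cut, is not stated by the labels.

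Between 64.6% and 73.8% of the spots on an array were well above background and none was saturated, and precision is limited by there being 4 arrays a group. That samples of different number came from different mice is inferred from their titles, and p-values measure the spread between these samples. Every level below is log2 signal minus the array's 75th percentile, and every difference is a log2 difference ± SE from limma with Benjamini-Hochberg adjustment over all genes tested. All wild-type arrays lay on 1 slide and all Apc arrays on the other 2, so slide and genotype cannot be told apart in any comparison with wild-type tissue. The slide with numbers 103 and 106 and the slide with 107 and 110 each held polyp and normal arrays, with normal and polyp samples in alternating positions.

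Mast cells mature inside tissues from circulating progenitors, kept alive by Kit ligand, and store proteases and histamine in granules. Antigen that cross-links IgE on the high-affinity receptor empties those granules. In the mouse, Mcpt1 and Mcpt2 are the chymases of mucosal mast cells of the gut, whereas Mcpt4, Cma1, Tpsb2 and Cpa3 are the stored proteases of connective tissue mast cells, and Cpa3 is also made by mucosal mast cells and their progenitors.

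In polyps, 8 of the 9 tested genes rose against Apc normal tissue, by 1.35 to 5.25 on the log2 scale, and Cma1 did not pass the test. Among all tested genes 20.5% rose and 24.9% fell in the same comparison (4121 and 5009 genes, or 4675 and 4369 with quantile normalization). The median difference of the 9 was 3.98, beside −0.06 for all tested genes. Fcer1a counts among the 8 but passed the signal filter through polyps alone, so that it had to differ, and a stricter filter left it untested. The 3 mouse chymases Mcpt1, Mcpt2 and Mcpt4, the carboxypeptidase Cpa3 and Hdc differed by about 4 or more, while Cma1, Cma2 and Tpsb2 differed by less than 2; differences between genes were not tested. In the same 8 genes every polyp array lay above every Apc normal array, which held for 20.5% of all tested genes. In bulk tissue, a change in the number of mast cells and a change in RNA per cell cannot be told apart.

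**Figure D1:**
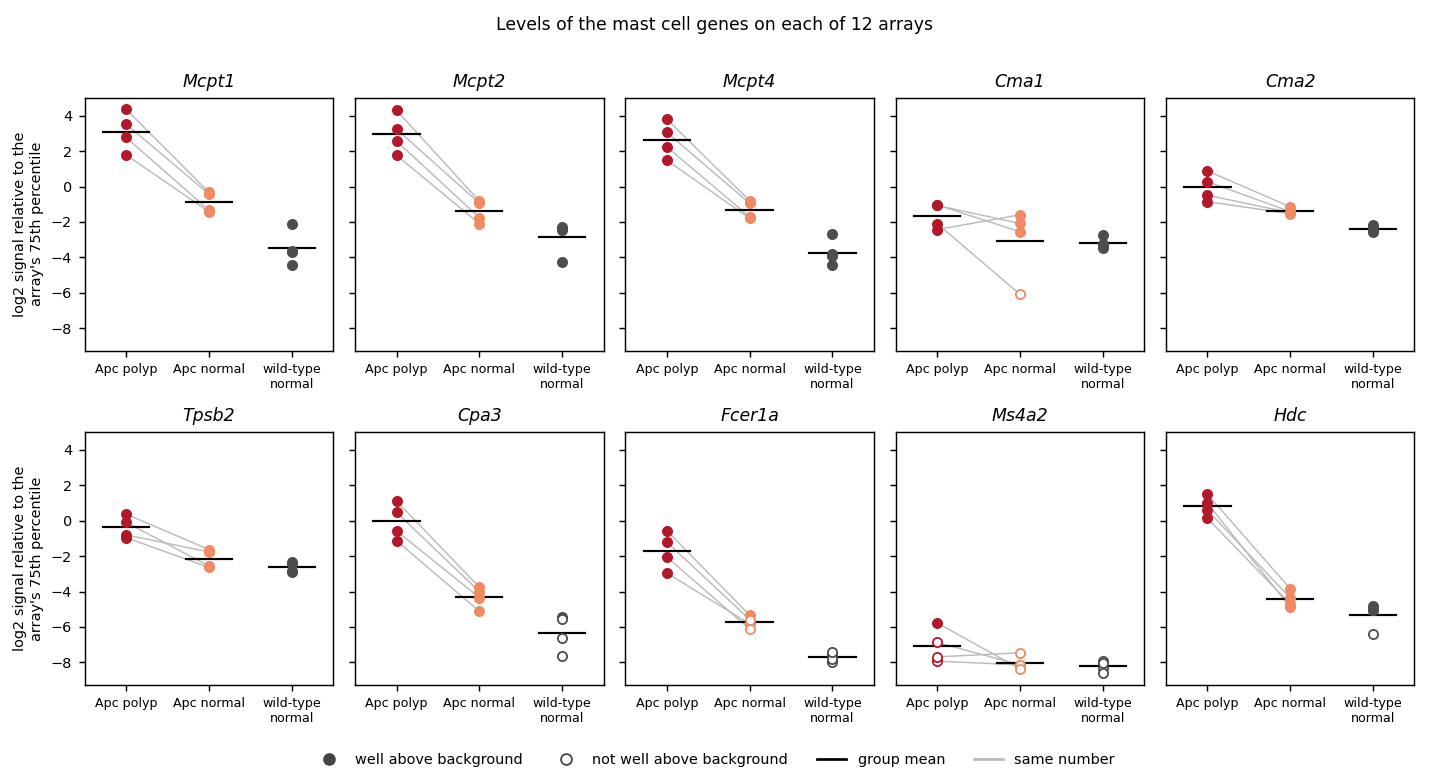
Level of each of the 10 genes on each array (vertical axis, log2 signal minus the array's 75th percentile) in Apc polyps, Apc normal tissue and wild-type normal tissue, with open points where the probe was not well above background, black bars for group means and grey lines joining samples of the same number. The polyp points of Mcpt1, Mcpt2, Mcpt4, Cpa3, Fcer1a and Hdc stand clear of both normal groups, and the Cma1 points overlap between polyps and Apc normal tissue.

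Mcpt1, which encodes the chymase that mucosal mast cells release into blood and gut lumen, had levels of 1.78, 2.77, 3.51 and 4.35 in polyps 103, 106, 107 and 110, against −1.43, −1.34, −0.43 and −0.33 in Apc normal tissue of those numbers. Wild-type tissue had −3.66, −3.68, −4.42 and −2.12 in samples 102, 104, 105 and 108. The 3 groups did not overlap: every polyp lay above every Apc normal sample, and every Apc normal sample above every wild-type sample. Polyps and Apc normal tissue differed by 3.98 ± 0.54, or 15.8-fold (limma adjusted p = 0.000733), with SDs of 1.09 and 0.58 (n = 4 each). Against wild-type tissue, at −3.47 ± 0.97, polyps differed by 6.57 ± 0.63, or 95.3-fold (adjusted p = 6.32e-05).

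Mcpt2, the second chymase of mucosal mast cells, had levels of 1.77, 2.57, 3.24 and 4.29 in the 4 polyps, against −2.09, −1.75, −0.94 and −0.81 in Apc normal tissue and −4.25, −2.47, −2.30 and −2.39 in wild-type tissue. Polyps again lay above both normal groups, and wild-type sample 102 stood below the other 3 wild-type samples. The difference between polyps and Apc normal tissue was 4.37 ± 0.54, or 20.6-fold (adjusted p = 0.00049), and that between polyps and wild-type tissue was 5.82 ± 0.62 (adjusted p = 0.000102).

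Mcpt4, the chymase of connective tissue mast cells, followed the mucosal chymases closely. Its levels were 1.48, 2.24, 3.05 and 3.80 in polyps, against −1.79, −1.71, −0.94 and −0.79 in Apc normal tissue and −3.83, −3.93, −4.45 and −2.69 in wild-type tissue. No groups overlapped. Polyps differed from Apc normal tissue by 3.95 ± 0.49, or 15.4-fold (adjusted p = 0.000505), and from wild-type tissue by 6.37 ± 0.54 (adjusted p = 3.58e-05).

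Cma1, the other chymase stored by connective tissue mast cells, did not share this pattern. Its levels were −1.07, −2.43, −2.09 and −1.04 in polyps, against −2.08, −1.59, −6.08 and −2.55 in Apc normal tissue. The groups overlapped, and Apc normal sample 107 was the only array on which its probe was not well above background. Polyps averaged −1.66 ± 0.71 and Apc normal tissue −3.08 ± 2.04 (SD, n = 4 each), and the difference of 1.42 ± 0.94 did not pass (adjusted p = 0.252). Without Apc normal sample 107 the difference was 0.42 ± 0.41 (adjusted p = 0.45). Wild-type levels of Cma1 were −3.33, −3.23, −3.46 and −2.76, all below the 4 polyps, and polyps differed from them by 1.54 ± 0.34 (adjusted p = 0.0049). That call ended when all 12 arrays shared 1 fit (adjusted p = 0.127) or slide was a random block (adjusted p = 0.0931).

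Cma2, a further chymase-like gene of the same cluster, had levels of −0.85, −0.49, 0.28 and 0.88 in polyps, against −1.54, −1.48, −1.42 and −1.14 in Apc normal tissue and −2.33, −2.49, −2.55 and −2.19 in wild-type tissue. The 3 groups did not overlap, and the normal samples spread less than the polyps. Polyps differed from Apc normal tissue by 1.35 ± 0.35 (adjusted p = 0.0153) and from wild-type tissue by 2.34 ± 0.35 (adjusted p = 0.000612). On the slide with numbers 103 and 106 alone, the first difference was 0.84 and did not pass (adjusted p = 0.0729). The array's annotation lists 2 RefSeq transcripts for the Cma2 probe, that of Cma2 and that of Mcpt4, so this reading may hold signal from both genes.

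The chymase genes lie together on chromosome 14 of assembly GRCm38.p6, with Cma1 at 55941451 to 55944675, Cma2 at 55950980 to 55989785, Mcpt1 at 56017964 to 56020391, Mcpt2 from 56021584, and Mcpt4 at 56059744 to 56062310. RefSeq promoter sequences of that assembly were at hand for 7 of the 10 genes. The 150 bases before the transcript start are shown for Mcpt1 and Mcpt4, which moved together, for Cma1, their neighbour that did not pass, and for Cpa3. They are written along the gene's own strand, and capitals mark TATAAA (the TATA box) and GATAA (a motif of GATA factors), searched on both strands together with CATGTG (an E-box). The sequences lie at chr14:56017814-56017963 (plus strand), chr14:56062311-56062460, chr14:55944676-55944825 and chr3:20242182-20242331 (all minus strand).
Mcpt1 promoter: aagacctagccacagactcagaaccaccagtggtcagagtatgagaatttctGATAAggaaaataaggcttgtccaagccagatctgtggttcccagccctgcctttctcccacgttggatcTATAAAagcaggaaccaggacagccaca
Mcpt4 promoter: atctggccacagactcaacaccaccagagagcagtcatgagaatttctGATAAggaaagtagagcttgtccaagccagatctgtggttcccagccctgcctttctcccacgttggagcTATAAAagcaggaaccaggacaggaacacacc
Cma1 promoter: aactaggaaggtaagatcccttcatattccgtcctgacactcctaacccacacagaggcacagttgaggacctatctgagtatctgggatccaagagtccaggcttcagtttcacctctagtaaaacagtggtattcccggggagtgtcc
Cpa3 promoter: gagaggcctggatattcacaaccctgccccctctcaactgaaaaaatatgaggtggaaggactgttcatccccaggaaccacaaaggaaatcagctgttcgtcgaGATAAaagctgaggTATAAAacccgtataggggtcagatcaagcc

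The Mcpt1 and Mcpt4 sequences were identical at 136 of 150 bases (90.7%) in a global alignment, while the other 20 pairs among the 7 genes reached 54.0% to 63.3%. In Mcpt1, TATAAA began 28 bases and GATAA 98 bases before the start, and in Mcpt4 they began 32 and 102 bases before it. In Cpa3, TATAAA began 31 bases and GATAA 45 bases before the start, and in Cma1 no searched motif was found in this window. Fcer1a held TATAAA 125 bases before the start, farther out than in Mcpt1, Mcpt4 and Cpa3, and GATAA on the opposite strand at 92 bases. Ms4a2 held GATAA on each strand, Hdc held none of the 3 motifs, and CATGTG was found in none of the 7. For Cpa3, Fcer1a, Ms4a2 and Hdc the transcript start used lay inside the gene's annotated span. The Hdc window lay wholly within that span. Of 32851 RefSeq promoters, 7.57% held TATAAA, 13.35% GATAA and 7.15% CATGTG in the same 150 bases, and 1.57% held both TATAAA and GATAA. These matches describe the letters of the windows and were not tested against the levels.

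Because the chymases are near relatives, the probes themselves were compared. The longest run of bases shared by probes of any 2 of the 10 genes was 10, between Mcpt1 and Mcpt2. There the last 17 bases of the Mcpt1 probe and the first 17 of the Mcpt2 probe matched at 15 positions, with the differing bases in capitals.
Mcpt1 probe, last bases: aagtagctgaGaagTct
Mcpt2 probe, first bases: aagtagctgaAaagCct
The probes thus differed from each other over most of their 60 bases. They were not compared with the transcripts of other genes, so this cannot show that a probe reads its own gene alone. The probes of Cma2 and Mcpt4 shared no run longer than 5 bases, although the annotation lists the Mcpt4 transcript for the Cma2 probe. The Cma1 probe spans an intron on the genome. Cross-hybridisation between chymase transcripts was not tested.

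Tpsb2, a tryptase stored with heparin in connective tissue mast cells, had a smaller difference than the chymases Mcpt1, Mcpt2 and Mcpt4, though the gap between them was not tested. Its brighter probe read −0.96, −0.81, −0.10 and 0.36 in polyps, against −2.64, −1.77, −2.56 and −1.63 in Apc normal tissue and −2.43, −2.31, −2.88 and −2.82 in wild-type tissue. Polyps lay above both normal groups, which overlapped each other. The difference between polyps and Apc normal tissue was 1.78 ± 0.36, or 3.42-fold (adjusted p = 0.00482), and that between polyps and wild-type tissue was 2.23 ± 0.30 (adjusted p = 0.000356). A dimmer probe of the gene gave means of −1.69 ± 0.78 in polyps, −3.58 ± 0.43 in Apc normal and −4.03 ± 0.68 in wild-type tissue (SD, n = 4 each), a polyp minus Apc normal difference of 1.89. On either Apc slide alone, with 2 arrays a group, the brighter probe's difference was 1.32 (adjusted p = 0.0797) and 2.23 (adjusted p = 0.0569), so neither slide passed by itself.

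Cpa3, on chromosome 3 at 20215616 to 20242209, encodes the carboxypeptidase that mast cells pack beside their chymases. Its levels were −1.13, −0.58, 0.47 and 1.10 in polyps, against −5.12, −4.34, −4.00 and −3.75 in Apc normal tissue and −5.58, −6.63, −7.65 and −5.46 in wild-type tissue. Only sample 108 of the wild-type group was well above background, and no groups overlapped. Polyps differed from Apc normal tissue by 4.27 ± 0.51, or 19.2-fold (adjusted p = 0.000429), and from wild-type tissue by 6.29 ± 0.62 (adjusted p = 7.31e-05). With normexp background correction and quantile normalization, these differences were 3.27 and 3.91 and still passed.

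Fcer1a encodes the chain of the high-affinity receptor that holds IgE, in mast cells and basophils. It passed the signal filter through the polyps alone: its levels there were −2.95, −2.05, −1.20 and −0.57, against −5.83, −6.12, −5.58 and −5.33 in Apc normal tissue, where sample 110 alone was well above background. Wild-type levels of −7.59, −8.00, −7.78 and −7.40 were all not well above background. Polyps averaged −1.69 ± 1.04 and Apc normal tissue −5.71 ± 0.34 (SD, n = 4 each), a difference of 4.02 ± 0.48 (adjusted p = 0.000409). Its size rests mainly on Apc normal values not well above background, and it was 2.27 with normexp correction and quantile normalization. Against wild-type tissue, measured at −7.69 ± 0.26, polyps were at least 18.9-fold higher. This bound sets the polyp mean against the lowest signals that count as well above background on the wild-type arrays. The limma adjusted p of 2.46e-05 belongs to the measured difference of 6.00 and not to the bound.

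Ms4a2, which encodes the signal-amplifying chain of the same receptor, was too dim to test. Its levels were −7.93, −7.69, −6.87 and −5.77 in polyps, against −8.14, −7.45, −8.13 and −8.36 in Apc normal tissue and −7.93, −8.30, −8.06 and −8.61 in wild-type tissue, and only polyp 110 was well above background. No fold is given for it.

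Hdc makes histamine from histidine and is expressed by mast cells, basophils and myeloid cells of the neutrophil line. Its levels were 0.13, 1.49, 0.99 and 0.59 in polyps, against −4.70, −3.84, −4.89 and −4.36 in Apc normal tissue and −5.07, −5.03, −4.84 and −6.39 in wild-type tissue. Polyps lay far above both normal groups, which overlapped. The difference between polyps and Apc normal tissue was 5.25 ± 0.33, or 38.0-fold (adjusted p = 4.4e-05) and 4.11 with normexp correction and quantile normalization, and that between polyps and wild-type tissue was 6.13 ± 0.40 (adjusted p = 1.22e-05).

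**Figure D2:**
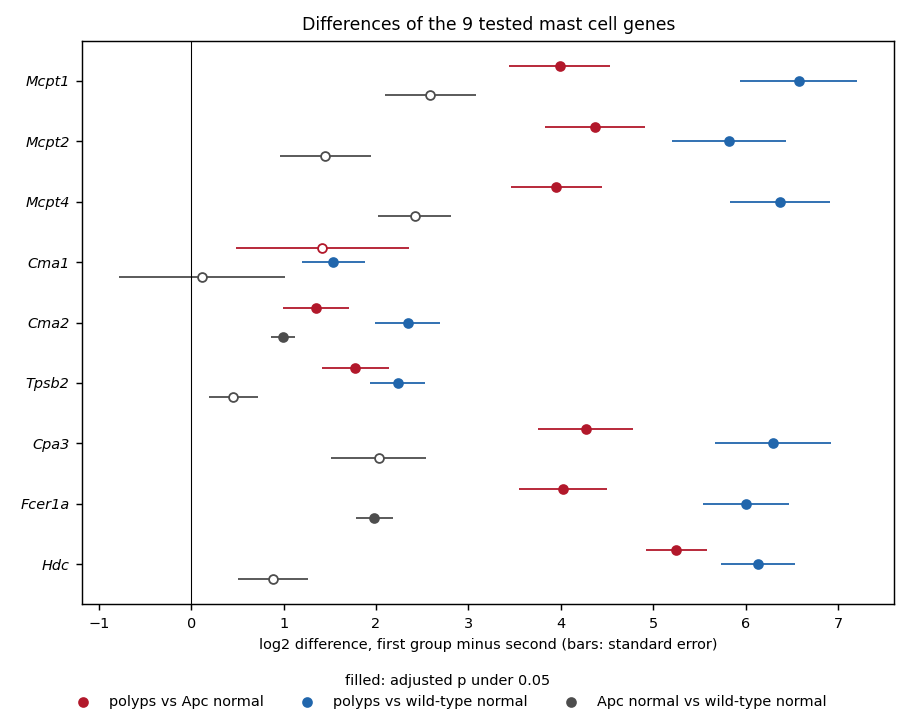
Log2 difference of each tested gene (horizontal axis, first-named group minus second, bars for the standard error) in polyps against Apc normal tissue, polyps against wild-type tissue and Apc normal against wild-type tissue, filled where the adjusted p was under 0.05. All 9 genes are called in polyps against wild-type tissue, 8 in polyps against Apc normal tissue and 2 in Apc normal against wild-type tissue.

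Against wild-type tissue all 9 tested genes were higher in polyps, with a median difference of 5.82 with Fcer1a at its bound, beside −0.05 for all tested genes. Of all tested genes 27.4% were higher and 32.8% lower, and in 25.3% every polyp lay above every wild-type sample, as in the 9. The 2 polyp comparisons share their polyp arrays, so they are not independent of each other. With normexp correction and quantile normalization all 9 stayed called with smaller differences, such as 5.84 for Mcpt1, 5.54 for Mcpt4, 5.18 for Mcpt2 and 4.44 for Hdc.

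Between the 2 kinds of normal tissue, 0.149% of tested genes were higher and 0.0199% lower in Apc normal than in wild-type tissue, while 17.1% had an unadjusted p under 0.05. The 34 genes called became 530 without Apc normal 103. Of the 9 mast cell genes, Cma2 (0.99 ± 0.13, adjusted p = 0.0402) and Fcer1a (1.98 ± 0.20, adjusted p = 0.0271) passed. The Fcer1a values were not well above background on 7 of the 8 arrays, and the bound for that gene was at least 1.16-fold. Over the alternatives the adjusted p ran from 0.0278 to 0.17 for Cma2 and from 0.0246 to 0.314 for Fcer1a, and the calls ended in 14 of 18 and 9 of 17 of them. The Cma2 call ended on leaving out any 1 array but Apc normal 103, and the Fcer1a call on leaving out wild-type 102, 104 or 105 or Apc normal 106 or 110.

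In 6 of the 9 genes (Mcpt1, Mcpt2, Mcpt4, Cma2, Cpa3 and Fcer1a) every Apc normal sample lay above every wild-type sample, which held for 4.78% of all tested genes. Mcpt1 differed by 2.59 ± 0.49 (adjusted p = 0.0783), Mcpt4 by 2.42 ± 0.40 (adjusted p = 0.0642) and Cpa3 by 2.03 ± 0.52 (adjusted p = 0.133), and none of these passed. Over the alternatives Mcpt4 still did not pass in 15 of 18 (limma adjusted p from 0.0278 to 0.216). Mcpt1 still did not pass in 17 of 18 (0.0351 to 0.225). With slide as a random block in a fit of all arrays, Mcpt1 and Mcpt4 passed (adjusted p = 0.0351 and 0.0278). The estimated correlation within slides was −0.0816, and since genotype lies wholly between slides the block cannot separate them. The differences of Mcpt2 (1.45 ± 0.49, adjusted p = 0.209), Hdc (0.89 ± 0.38, adjusted p = 0.282), Tpsb2 (0.46 ± 0.27, adjusted p = 0.417) and Cma1 (0.12 ± 0.90, adjusted p = 0.964) did not pass.

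Samples of the same number could be set against each other. In Mcpt1, polyp minus normal was 3.21, 4.11, 3.94 and 4.68 for numbers 103, 106, 107 and 110, and in Cpa3 it was 3.98, 3.76, 4.46 and 4.86. In Hdc it was 4.83, 5.33, 5.88 and 4.96. In Cma1 it was 1.02, −0.83, 3.99 and 1.51, the one tested gene with a pair below 0. All 4 pairs were above 0 in the other 8 tested genes.

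**Figure D3:**
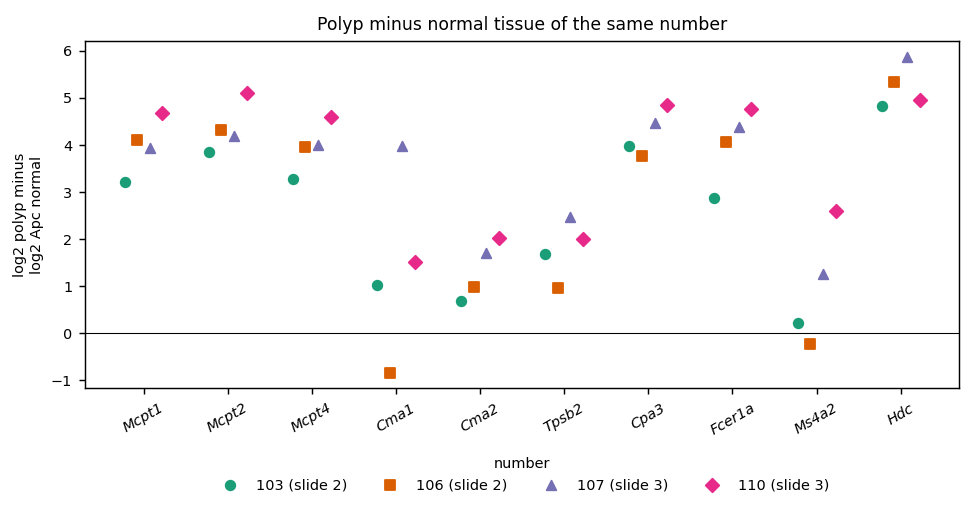
Polyp minus Apc normal level (vertical axis, log2) for each of the 10 genes, 1 point for each sample number, with the slide of that number in the legend. For the 8 called genes all points lie above 0, from 0.68 in Cma2 to 5.88 in Hdc, and the 4 points of Cma1 run from −0.83 to 3.99.

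The samples kept much the same places from gene to gene. Polyp 103 was the lowest polyp in 8 of the 9 tested genes, all but Cma1, and polyp 110 was the highest in 8, all but Hdc. In Apc normal tissue, sample 103 was the lowest in 6 genes and sample 110 the highest in 7. In wild-type tissue, sample 105 was the lowest in 6 and sample 108 the highest in 6. Within each group the genes share arrays and RNA, so these counts describe the samples and not separate observations. Each slide alone kept the large differences, with Mcpt1 at 3.66 on the slide of numbers 103 and 106 and 4.31 on that of 107 and 110, and Hdc at 5.08 and 5.42.

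Likeness of pattern was measured as the root mean square difference of centred log2 levels over the 12 arrays, with small values for like patterns. Among the other mast cell genes, Cpa3 was nearest to Mcpt4 (0.38), Mcpt1 (0.44) and Fcer1a (0.52), and far from Cma2 (1.75), Tpsb2 (1.77) and Cma1 (2.39). Mcpt2 (0.90) and Hdc (1.15) lay between, farther from Cpa3 than the outside genes named next. Outside them, and leaving out transcripts known only by clone or predicted-gene names, the genes most like Cpa3 were Trim10 (0.72), Tff1 (0.72), Prss22 (0.82), Myl7 (0.85) and Acod1 (0.86). Those most like Mcpt2 were Prss22 (0.72), Mcpt-ps1 (0.80), Cers3 (0.80), Sema7a (0.81) and Dio2 (0.82), of which Mcpt-ps1 is a mast cell protease pseudogene by its name. Those most like Cma1 were Hamp2 (0.59), Upk3bl (0.71), Msln (0.73), Cxcl17 (0.74) and Pdcl2 (0.75). By likeness, 1 transcript so left out came before the first gene named for Cpa3, 1 before Hamp2 and another before Upk3bl, and none before those named for Mcpt2.

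Other genes tied to mast cells were read from fixed lists. Of 20 further mast cell genes 16 were tested in polyps against Apc normal tissue, and 3 rose while 4 fell, with a median of −0.14. Of all tested genes 20.5% rose and 24.9% fell, shares near these counts. The counts of the other lists below in this comparison stand beside the same shares. Il1rl1, the receptor for IL-33, rose by 4.48 ± 0.68 (adjusted p = 0.00123), and Gata2, a transcription factor of mast cells and their progenitors, rose by 1.41 ± 0.30 (adjusted p = 0.00583). Srgn rose by 1.97 ± 0.53 (adjusted p = 0.0176), with overlap between the groups. Rgs13, Tpsg1, Kit and Cd63 fell. Rgs13 fell by 2.98 ± 0.60 and Tpsg1, a transmembrane tryptase, fell by 1.96 ± 0.30 on the log2 scale (adjusted p = 0.00472 and 0.00126). These genes are not all peculiar to mast cells.

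Kit, the receptor for Kit ligand, had levels of −0.78, −0.90, −0.04 and −0.48 in polyps, against 0.68, 0.42, 1.54 and 0.25 in Apc normal tissue. All polyps lay below all Apc normal samples, and the difference was −1.27 ± 0.31 (adjusted p = 0.0111). Kit also marks interstitial cells of Cajal, the pacemakers of the gut muscle, and 3 of 4 tested markers of those cells fell, Etv1 with a difference of −2.32 ± 0.24 and Thbs4 with −2.58 ± 0.38 (adjusted p = 0.000231 and 0.00106), Kit being the third. The other tested marker, Ano1, did not pass (−0.58 ± 0.29, adjusted p = 0.142). The summed levels of the 4, Kit among them, ran from 0.49 to 3.33 in polyps. They ran from 8.26 to 9.79 in Apc normal tissue and from 9.71 to 11.13 in wild-type tissue. The part of these cells in the Kit difference was not tested.

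Of 18 genes for growth and recruitment of mast cells 13 were tested, and 4 rose while 1 fell in polyps against Apc normal tissue. Il33, the ligand of Il1rl1, had levels of 0.92, 1.86, 1.36 and 1.55 in polyps, against −2.67, −1.05, −2.69 and −1.92 in Apc normal tissue, with no overlap and a difference of 3.50 ± 0.38 (adjusted p = 0.000299). The chemokine gene Cxcl2 had no normal array well above background and passed the signal filter through polyps alone, so that it had to differ. Polyps exceeded Apc normal tissue at least 38.7-fold, a bound without a test of its own. The limma adjusted p of 4.04e-05 belongs to the measured Cxcl2 difference of 7.18. Ccl2 rose by 3.57 ± 0.50 and Tgfb1 by 1.63 ± 0.25 (adjusted p = 0.000869 and 0.00123). Il18 fell by 1.34 ± 0.32 on the log2 scale (adjusted p = 0.0104). The Kit ligand gene Kitl was well above background on every array and did not pass (0.46 ± 0.24, adjusted p = 0.148). The cytokine genes Il3, Il9 and Il13 of this list were not well above background on any array.

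In polyps against Apc normal tissue 24.9% of all tested genes fell and 20.5% rose. Of the 6 genes for histamine receptors and histamine breakdown 3 fell and none rose. They were the receptor gene Hrh1 (−1.60 ± 0.18, adjusted p = 0.00031, by its brightest probe), Aoc1, which encodes diamine oxidase (−1.77 ± 0.34, adjusted p = 0.00352), and Hnmt, which encodes histamine methyltransferase (−1.77 ± 0.37, adjusted p = 0.00563). The probes of Hrh1 disagreed: of its other probes 1, well above background on all arrays, differed by −0.09, and 1 differed by −1.60. Levels of Hnmt were −4.82, −4.76, −3.47 and −3.59 in polyps, against −2.52, −2.78, −1.79 and −2.46 in Apc normal tissue, with no overlap. Of 11 genes of IgE receptor signalling 3 rose and 1 fell: Plcg1 (1.29 ± 0.11, adjusted p = 0.000114), Fyn (1.18 ± 0.21, adjusted p = 0.00246) and Plcg2 (0.90 ± 0.21, adjusted p = 0.00984) were higher and Syk was lower (−0.78 ± 0.15, adjusted p = 0.00399). These kinases and lipases work in many cell types. Another Plcg1 probe differed by 1.09, and a dim one, well above background on 2 polyp arrays, differed by 0.01. Against wild-type tissue, 27.4% of all tested genes were higher and 32.8% lower in polyps. Beside these shares, polyps were higher in 7 and lower in none of the 11 genes of IgE receptor signalling. They were higher in 3 and lower in 7 of the 16 further mast cell genes. In growth and recruitment they were higher in 6 and lower in 1 of the 13 genes, and they were lower in 3 of the 6 histamine genes. Between Apc normal and wild-type tissue no tested gene of these 4 lists passed in limma, and at an unadjusted p under 0.05 there were 3 in IgE receptor signalling, 5 among the further mast cell genes, 4 in growth and recruitment and 1 among the histamine genes, out of 11, 16, 13 and 6 tested and beside the 17.1% of all tested genes.

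**Figure D4:**
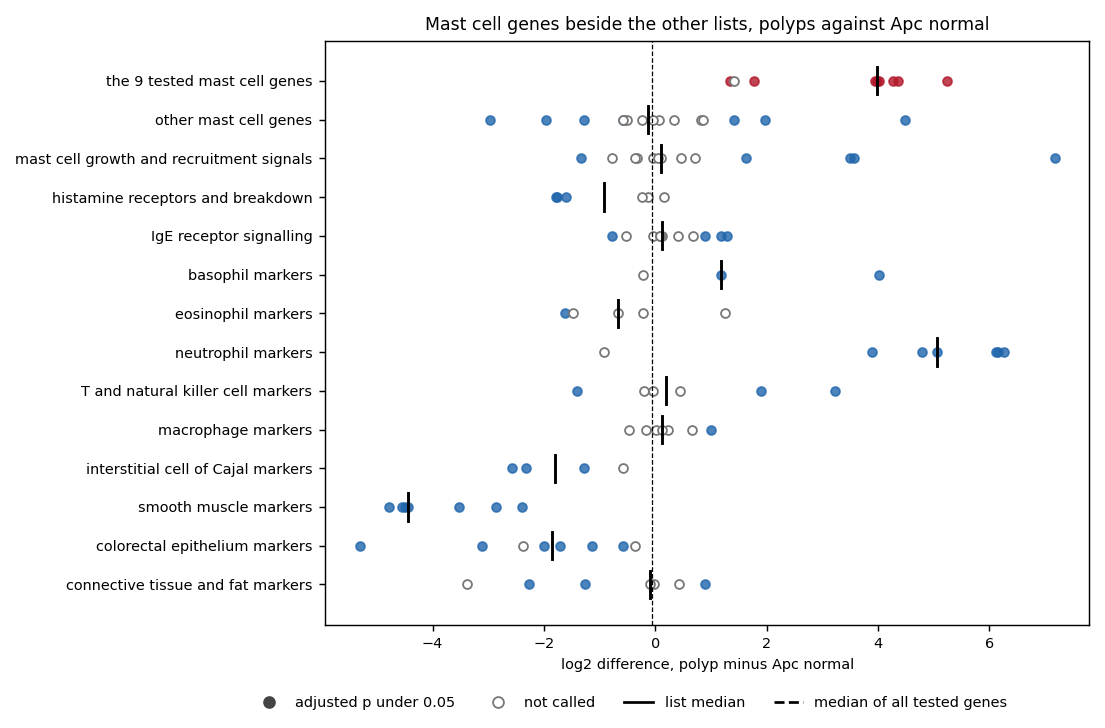
Log2 difference of each tested gene in polyps minus Apc normal tissue (horizontal axis), in 1 row for the 9 mast cell genes and 1 for each other list, filled where the adjusted p was under 0.05, with short bars for list medians and a dashed line for the median of all tested genes. The mast cell genes lie at 1.35 to 5.25, neutrophil markers have a median of 5.06 (4.79 with genes measured only as a bound set at it) and smooth muscle markers one of −4.44.

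Other cell types share some of these genes, and some of their markers differed too. Of 6 basophil markers 3 were tested, and Il3ra (1.18 ± 0.17, adjusted p = 0.00111) and Fcer1a rose, while the protease gene Prss34 did not pass (−0.21 ± 0.29, adjusted p = 0.575). The basophil protease gene Mcpt8 was well above background on 3 of 4 polyp arrays, at −4.99, −4.55 and −3.97 in polyps 106, 107 and 110, and on no normal array, and the same counts held for Cd200r3. The summed levels of the 3 tested markers, Fcer1a among them, ran from −8.67 to −5.39 in polyps, against −12.48 to −10.87 in Apc normal tissue and −14.82 to −14.30 in wild-type tissue, and Fcer1a, with its difference of 4.02, made most of the gap between polyps and Apc normal tissue. The part of basophils in the Fcer1a and Hdc differences was not tested.

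Of 7 neutrophil markers 6 rose, with Mmp9 at 4.79 ± 0.32 (adjusted p = 5.23e-05) and Cxcr2, not well above background on any normal array, at least 12.6-fold higher (adjusted p = 0.000117). The other, Ly6g, did not pass (−0.92 ± 0.74, adjusted p = 0.34) and was lower in polyps than in wild-type tissue (−1.41 ± 0.33, adjusted p = 0.0064). The summed levels of all 7 ran from −0.34 to 14.26 in polyps, against −29.05 to −14.47 in Apc normal tissue and −33.46 to −26.14 in wild-type tissue. The part of neutrophil-line cells in the Hdc difference was not tested. Of 5 tested eosinophil markers none rose and Siglecf fell by 1.63 ± 0.48 (adjusted p = 0.0256), with Prg2 at −1.48 (adjusted p = 0.124). Of 6 tested T and natural killer cell markers Gzmb (3.23 ± 0.69, adjusted p = 0.00603) and Gzma rose and Nkg7 (−1.41 ± 0.19, adjusted p = 0.000705) fell, and of 7 macrophage markers only Cd68 (1.01 ± 0.32, adjusted p = 0.0338) passed, with Cd14 at 0.67 (adjusted p = 0.147).

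Markers of other tissue cells differed between the groups as well. All 7 smooth muscle markers fell in polyps, Actg2 with a difference of −3.53 ± 0.27 and Myh11 with −4.44 ± 0.36 (adjusted p = 8.92e-05 and 0.000106), and their summed levels ran from 0.09 to 11.93 in polyps, against 31.54 to 34.68 in Apc normal tissue and 35.32 to 39.18 in wild-type tissue. Of 8 epithelial markers 6 fell, Slc26a3 with a difference of −5.31 ± 0.42 (adjusted p = 9.22e-05). Of 7 tested markers of connective tissue and fat 1 rose and 2 fell, with Lum at −2.26 ± 0.23 and Fabp4 at −1.26 ± 0.33 (adjusted p = 0.000221 and 0.0156). Whether these marker differences reflect the makeup of the samples or RNA per cell was not tested. How far tissue makeup enters the mast cell gene levels was not tested either.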

How the data were processed

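Gene expression was measured on Agilent 4x44K mouse arrays hybridised with Cy3-labelled RNA. Per the file headers, the deposited scanner files hold the spot intensity written by Agilent Feature Extraction 10.7.3.1, background-subtracted and not scaled between arrays, with probe flags. A deposited value table holds, on a linear scale, a ratio of signal to an array constant. No source used here says how it was made, but 99.82% to 99.87% of each column came within 1% of rescaled processed signal, with medians of 1, and it served as an alternative.

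After removal of control spots and of 1403 spots marked as outliers, log2 processed signals of a probe's spots were averaged and reduced by the array's 75th percentile. Probes were named through RefSeq accessions (27508 of 39429), symbols (3544) or synonyms (404) of a GRCm38.p6 table, and 7973 kept the file's name. A gene was read by its brightest probe. For each comparison limma 3.58.1 (R 4.3.3; lmFit, eBayes) was fitted on the 8 arrays compared, called at an adjusted p under 0.05. The steps were tested on simulated data. Where no array of a group was well above background, a fold is a bound: each of that group's arrays enters at its detection floor (−7.00 to −5.17, the dimmest signal marked well above background) or at the probe's signal if that is higher.

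The 10 genes, the lists and the rule for named genes were chosen with earlier results of these data known. Named were all 10 genes, members of the lists nearest to mast cells that passed a comparison (at most 6 a list), the 2 of smallest p of the other lists (1 such gene is not reported here), and the 5 genes most like Cpa3, Mcpt2 and Cma1; Mcpt8, Cd200r3, Il3, Il9, Il13, Gzma, Prss34 and Ly6g were named after their values were seen. Samples of the same number correlated in their deviations from group means (r = 0.455, 0.17, 0.143 and 0.282 for 103, 106, 107 and 110, across genes, against −0.328 to 0.193 for other pairs), so the numbers in the titles were taken to pair polyp and normal samples, and a fit with the number as a block was an alternative. The labels give no litter or day.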

Additional observations from a re-analysis of the deposited data

Results flagged for a closer look

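Among the 30 sets of 4 arrays examined, 2 held 1 array far from the other 3. Chance marks about 1 in 20 such sets. Wild-type sample 102 had an Mcpt2 level of −4.25, below the other 3 at −2.47 to −2.30. Wild-type sample 108 had an Hdc level of −6.39, where the probe was not well above background, below the other 3 at −5.07 to −4.84.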

How the results depend on the processing

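In polyps against Apc normal tissue the 8 called genes stayed called without any 1 array and under every alternative fit of all arrays, except that a stricter filter left Fcer1a untested (7 called); 6 were called on slide 2 alone (numbers 103 and 106) and 7 on slide 3 alone (107 and 110). The replicate block called 8 of the 9, as without the block, and 9322 genes in all, and changed no call on the mast cell genes. Over all genes, 9130 were called, 3466 on slide 2 alone and 1902 on slide 3 alone, with fewer samples. Polyps against wild-type tissue kept 9 called genes, except 8 (without Cma1) in 1 fit of all 12 arrays or with slide as a random block, and 6 with the stricter filter, which tested fewer genes.

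In Apc normal against wild-type tissue, 34 genes were called: 3 with normexp and quantile normalization, 2 with no filter on dim probes, 226 with all 12 arrays in 1 fit, 14 with a variance trend and robust eBayes, 814 with slide as a random block, and, without 1 array, 2 (wild-type 104 or 105, Apc normal 106 or 110), 9 (wild-type 102), 11 (wild-type 108) or 530 (Apc normal 103). Of the mast cell genes 2 were called: 1 with the median, the value table, the stricter filter or all 12 arrays in 1 fit, 0 with normexp, no filter or the variance trend, 3 with the random block, and 0 to 3 without 1 array. The Cma1 difference ran from −0.38 to 1.12 without 1 array and was below 0 without Apc normal 103, 106 or 110 (−0.21, −0.38 and −0.06). The causes were not tested. Dim levels (Fcer1a, Ms4a2 and wild-type Cpa3) limit what the differences can show.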
